A study of Saccharomyces cerevisiae with 12 samples.

Results

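Chronological aging of wild-type *TRA1* cells of Saccharomyces cerevisiae was followed by setting 3 libraries from day 3 of culture against 3 libraries from day 0, and these are 6 of the 12 samples of the series. Genes that reached 10 counts in 3 or more of these libraries were compared, which kept 6163 of the 6691 genes in the table. The study also holds *tra1Q3* cells at day 3 and at day 0 with 3 libraries each, in which the kinase-like domain of Tra1, a subunit of the SAGA and NuA4 acetyltransferase complexes, is mutated. They enter here only where the change with age is compared between the genotypes. The study asked how this domain bears on survival and expression in old cells.

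Both ages of *TRA1* cells are of the W303A strain, of mating type a, with the auxotrophic alleles ura3-1, his3-11, leu2-3, trp1-1 and ade2-1 and with can1-100. The *TRA1* gene of this strain is an integrated, FLAG-tagged wild-type allele linked to *URA3* and selected through *HIS3*, and the *tra1Q3* cells carry the mutant allele in the same tagged form. Cells of all groups also carry a *LEU2* plasmid, YCplac111, in which the *DED1* promoter drives YHR100. Cells from a saturated overnight culture were diluted into fresh glucose medium without leucine and grown for some hours before sampling at day 0, and the aged samples were taken from such cultures at day 3. This follows the description of the methods, whereas the sample labels give mid-log growth, synthetic complete medium and another RNA kit. Viability at both ages was assayed by the study and was not analysed here. RNA was enriched with poly dT, and the replicates stand for separate samples of 1 strain, so that the p-values measure the spread between these samples. The libraries are of bulk cells, in which fewer cells of a kind and less RNA in each cell cannot be told apart.

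A yeast culture in glucose medium first ferments the sugar to ethanol and represses the genes for using other carbon sources. When glucose runs out, cells enter the diauxic shift, respire the ethanol and acetate they have made, and then stop dividing. Cells in this state are the model for chronological aging, in which survival without division is counted in days. The Snf1 kinase and the activators Cat8, Adr1 and Sip4 switch on gluconeogenesis and fatty acid use, Msn2, Msn4 and Gis1 act on stress genes, and lower activity of TORC1 and protein kinase A turns down the making of ribosomes.

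The libraries held 20662125 to 27375850 counts at day 3, against 24691338 to 25716200 at day 0. Counts are given below as normalized counts, which are raw counts scaled to the mean TMM-adjusted size of the 6 libraries, and they carry no correction for gene length. Genes were tested by the quasi-likelihood test of edgeR, with p-values adjusted over all 6163 genes after Benjamini and Hochberg, and a gene was called where the adjusted p was at most 0.05 and the log2 fold change of day 3 over day 0 was over 1 in either direction. Fold changes are given on the log2 scale as value ± standard error, from 3 libraries at each age. Replicate 2 of day 3 stood apart from the other aged libraries. In it, 261 genes lay more than 1 on the log2 scale from both other replicates of day 3 in the same direction, 130 above and 131 below, whereas this held for 15 genes in replicate 1 and for 18 in replicate 3. Values without this library are given beside the results that rest on it.

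The libraries were checked against their labels. Of the MATa-specific genes, *STE2*, which encodes the receptor for alpha-factor, had 1525, 1602 and 1459 normalized counts at day 3, against 12935, 13393 and 13965 at day 0, and *MFA1*, which encodes the a-factor pheromone, had 2477, 2075 and 1852 at day 3, against 1960.5, 2373 and 1975 at day 0. The alpha-specific receptor gene *STE3* had 449, 504 and 413 normalized counts at day 3, against 135, 129.8 and 123 at day 0. *STE2* was above *STE3* in all 6 libraries, but reads in overlaps of coding sequences were not counted, which lowers the counts of *STE3*. Of 7 MATa-specific genes, 4 were called lower at day 3 and none higher. Of 4 alpha-specific genes, 3 were called higher and none lower. Of all genes tested, 19.9% were called higher and 19.8% lower. *LEU2*, the marker of the plasmid, had 11338, 17022 and 11400.0 normalized counts at day 3, against 48269.9, 49272 and 47587 at day 0 (-1.87 ± 0.19). *TRA1* itself had 14328, 15197 and 15444 normalized counts at day 3, against 17342, 16937 and 16732 at day 0. Its log2 fold change was -0.18 ± 0.09 with an adjusted p of 0.11, and it was not called. On the scale of all 12 libraries, *TRA1* averaged 14123.5 ± 572 normalized counts in *TRA1* cells at day 3 and 44159.9 ± 917 in *tra1Q3* cells at day 3, and 16039 ± 322 in *TRA1* cells at day 0 and 23252.5 ± 992 in *tra1Q3* cells at day 0 (SD, n = 3 each). Of 18 genes of meiosis and sporulation, which a haploid MATa strain does not normally carry out, 12 were called higher at day 3 and none lower. The share of all genes called higher was 19.9%. Without replicate 2 of day 3, 10 of the 18 genes were called higher and none lower. Their regulator *IME1* had 5203, 1689 and 4949.7 normalized counts at day 3, against 159.6, 134 and 148 at day 0, while *NDT80*, which opens the middle phase of meiosis, had 537, 545 and 509 at day 3, against 534, 527 and 478 at day 0. The part of such transcripts in the other results was not tested.

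With age, 2450 of the 6163 genes passed both limits. Of the genes tested, 1227 (19.9%) were called higher at day 3 and 1223 (19.8%) lower. The median log2 fold change of all genes was 0.03. Without the limit on size, 4674 genes had an adjusted p of at most 0.05, and in 80.98% of all genes tested the 3 libraries of day 3 did not overlap the 3 of day 0. The numbers of rises and falls were alike up to a log2 fold change of 2, with 473 genes above 2 and 467 below -2. Beyond that the rises ran further. Above 3 there were 214 genes, against 113 below -3, and above 5 there were 60 genes, against 2 below -5.

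The content of the libraries shifted with these genes. The 1227 genes called higher took 41.05%, 38.4% and 40.1% of the counts in the 3 libraries of day 3, against 7.12%, 7.22% and 7.37% in the 3 of day 0. The 1223 genes called lower took 12.4%, 13.7% and 12.3% at day 3, against 48.98%, 49.4% and 48.6% at day 0. Each fold change is relative to the TMM-adjusted size of the libraries, and the amount of RNA in a cell was not measured. Genes called higher were shorter, with a median coding length of 930 bases, against 1164 bases for genes called lower and 1149 bases for all genes tested.

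The 10 largest rises were those of *DPA10*, *SIP18*, *MLS1*, *GRE1*, *SPG4*, *RGI2*, *SPS100*, *PDC6*, *PCK1* and *YMR175W-A*. *DPA10* (YLR307C-A) had 126632, 34381 and 104194 normalized counts at day 3, against 178, 53.6 and 50.2 at day 0, a log2 fold change of 9.87 ± 0.87 (adjusted p = 4.2e-05). *SIP18* and *GRE1* encode related hydrophilins, small water-loving proteins made under drying and osmotic stress. *SIP18* had 103402, 144936 and 76433 normalized counts at day 3, against 195, 131 and 123 at day 0 (9.49 ± 0.40, adjusted p = 1.6e-06). *GRE1* had 255342, 286498 and 252543 at day 3, against 549, 310.1 and 258 at day 0 (9.47 ± 0.42, adjusted p = 1.9e-06). Per kilobase of coding sequence *GRE1* was the most abundant transcript of aged cells, with 522277 normalized counts per kb, ahead of *DDR2* with 457786, *SIP18* with 451071, *HSP12* with 382460 and *HSP26* with 359003. None of these was among the 5 most abundant at day 0, which were *TDH3*, *RPL41A*, *ENO2*, *FBA1* and *RPL41B*.

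*MLS1*, the malate synthase of the glyoxylate cycle, had 140195, 84824 and 123632 normalized counts at day 3, against 251, 104 and 129.7 at day 0 (9.49 ± 0.49, adjusted p = 3.5e-06). *SPG4*, a gene named for survival in stationary phase, had 79072, 63046 and 65760.4 at day 3, against 168, 98.9 and 131 at day 0 (9.03 ± 0.28). *PDC6*, the minor pyruvate decarboxylase, had 57875, 15804 and 75248 at day 3, against 176, 69.0 and 87.9 at day 0 (8.803 ± 0.80). In *SPS100*, which encodes a protein of the spore wall, the counts were 119090.0, 54404 and 163145 at day 3, against 367, 173 and 169.5 at day 0 (8.89 ± 0.64). *RGI2*, a gene tied to respiratory growth, had 3977, 12137 and 3091 at day 3, against 15.3, 9.27 and 12.6 at day 0, and its log2 fold change of 8.998 ± 0.77 was 8.15 without replicate 2 of day 3. *YMR175W-A*, a short reading frame next to *SIP18*, had 2174, 2430.0 and 1499.5 at day 3, against 10.2, 10.3 and 3.14 at day 0 (7.98 ± 0.34). By the rule that picked these 10 genes, every library of day 3 lay above every library of day 0. At day 0, replicate 1 was the highest library in 9 of the 10, as it was in 34 of the 60 genes that rose by more than 5 and in 32.7% of all genes tested. Its excess over the other day 0 libraries equalled 0.0631% to 0.196% of the mean level at day 3 in those 10 genes. Without that library the 10 log2 fold changes lay between 8.21 and 10.73.

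**Figure D1:**
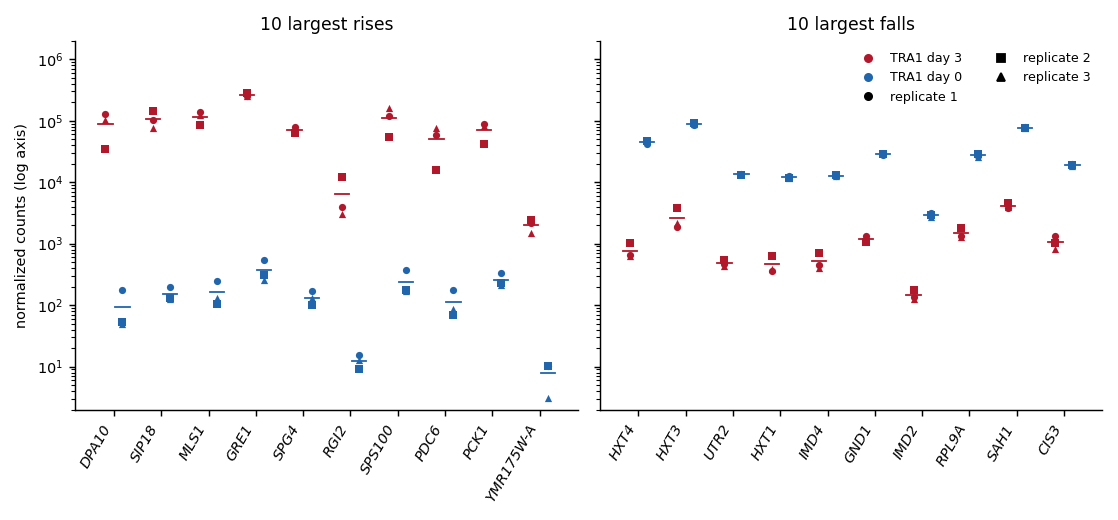
Normalized counts of the 10 genes with the largest rise (left) and the 10 with the largest fall (right) in each TRA1 library, on a log axis, with day 3 in red, day 0 in blue, a marker for each replicate and a line at each mean. Genes were picked so that the 3 libraries of day 3 lie apart from the 3 of day 0. The log2 fold changes are 7.98 to 9.87 for the rises and -5.91 to -4.19 for the falls.

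Many of the largest falls were in genes of glucose uptake and of biosynthesis. *HXT4*, *HXT3* and *HXT1*, which encode glucose transporters of the plasma membrane, fell most among transporters. *HXT4* had 655, 1015 and 619 normalized counts at day 3, against 42422, 46793 and 47906 at day 0 (-5.91 ± 0.25, adjusted p = 1.6e-06). *HXT3* had 1867, 3869 and 2164 at day 3, against 86458, 90075 and 88161 at day 0 (-5.07 ± 0.32). Replicate 2 was the highest of the day 3 libraries in both, and it too lay far below every day 0 library. *UTR2*, a chitin transglycosylase of the cell wall, had 474, 535 and 431 at day 3, against 13661, 13033 and 13392 at day 0 (-4.799 ± 0.12). *IMD4* and *IMD2*, copies of IMP dehydrogenase in the path to GTP, fell as well. *IMD4* had 444, 706 and 398 at day 3, against 12583, 13065 and 12595 at day 0 (-4.63 ± 0.24), and *IMD2* had 133, 175 and 125 at day 3, against 3109, 2969 and 2736 at day 0 (-4.35 ± 0.15). The list was completed by *GND1* of the pentose phosphate pathway (-4.59 ± 0.12), *RPL9A* of the large ribosomal subunit (-4.23 ± 0.17), *SAH1*, which hydrolyses S-adenosylhomocysteine (-4.21 ± 0.15), and *CIS3*, a cell wall mannoprotein (-4.19 ± 0.20). Of the coding bases of *GND1*, 453 overlap another annotated coding sequence. Reads in such overlaps were left out by the counting and strand was not used, which also lowers the counts of *PGK1*, *NOP56*, *LEU9*, *GPH1*, *ISU1*, *ISU2*, *SSB1*, *COB* and *STE3*.

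Genes were grouped into 45 lists by function, and each list is described by its counts beside the 19.9% of all genes called higher and the 19.8% called lower. List medians ran from 6.97 for the glyoxylate cycle and gluconeogenesis to -2.67 for the proteins of the small ribosomal subunit.

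Hexose transporters moved in both directions. Of 17 tested hexose transporters and sensors, 7 were called higher and 4 lower. Besides *HXT4*, *HXT3* and *HXT1*, the transporter *HXT2* fell (-2.35 ± 0.23). *HXT5*, a transporter known for slow growth and starvation, had 148556, 87227 and 152444 normalized counts at day 3, against 1434, 1324 and 1316 at day 0 (6.57 ± 0.30, adjusted p = 2.0e-06). *HXT10* rose by 4.22 ± 0.18 at a lower level, with 748, 813 and 761 normalized counts at day 3, against 52.2, 40.2 and 31.4 at day 0, and the glucose sensor *SNF3* rose by 1.33 ± 0.08. *HXT6* and *HXT7* share nearly all of their sequence, with 5.08% of windows unique to each, so that uniquely mapped reads count only part of them, and their fold changes of 1.92 ± 0.19 and -0.62 ± 0.22 are uncertain.

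Of the 17 glycolytic genes, 10 were called lower and 1 higher, with a list median of -1.24. *HXK2*, the hexokinase of glucose-grown cells, had 1458, 1777 and 1559 normalized counts at day 3, against 25014, 26163 and 23791 at day 0 (-3.97 ± 0.12). The enolase *ENO2* had 31779.6, 19874 and 36703 at day 3, against 367831, 375074 and 353223 at day 0 (-3.63 ± 0.29), and of the glyceraldehyde-3-phosphate dehydrogenases *TDH2* fell (-2.72 ± 0.16), while *TDH1*, the form known from stationary cells, had 241420.0, 85207 and 265439 at day 3, against 80438, 90588 and 87880.3 at day 0. The rise of *TDH1* (1.19 ± 0.41, adjusted p = 0.031) rested on replicates 1 and 3, since replicate 2 lay within the range of day 0, and was 1.56 without it. *PGK1*, phosphoglycerate kinase, fell (-1.61 ± 0.39), and its log2 fold change was -1.26 without replicate 2. The list took 5.31%, 3.54% and 5.78% of the counts at day 3, against 7.94%, 8.22% and 7.96% at day 0.

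Genes that handle ethanol, acetaldehyde and acetate moved in both directions. *ADH2*, the alcohol dehydrogenase that oxidises ethanol, had 8369, 5791 and 4529 normalized counts at day 3, against 428, 396 and 464 at day 0 (3.86 ± 0.24). *ADH1*, which makes ethanol, had 28713, 36748 and 28244 at day 3, against 200673, 195462 and 185235 at day 0 (-2.63 ± 0.19). The acetyl-CoA synthetase gene *ACS1* had 63143, 26386 and 60408 at day 3, against 669, 645 and 567 at day 0 (6.32 ± 0.40). *ACH1*, which moves CoA from succinyl-CoA to acetate, rose by 4.52 ± 0.22, the mitochondrial aldehyde dehydrogenase *ALD4* by 2.85 ± 0.27 and the cytosolic *ALD6* by 1.78 ± 0.20, while *ALD5* fell (-2.67 ± 0.18). In this list of 16 genes, 8 were called higher and 3 lower.

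All 7 genes of the glyoxylate cycle and gluconeogenesis were called higher, with a median of 6.97. The glyoxylate cycle lets cells build sugar from acetate, and *PCK1* and *FBP1* hold the steps that belong to gluconeogenesis alone. *ICL1*, isocitrate lyase, had 149795, 61483 and 130254 normalized counts at day 3, against 935, 661 and 777 at day 0 (7.17 ± 0.43, adjusted p = 6.7e-06). *PCK1*, phosphoenolpyruvate carboxykinase, had 88259, 42105 and 83186 at day 3, against 336, 229.7 and 214 at day 0 (8.096 ± 0.42). *FBP1*, fructose-1,6-bisphosphatase, had 9853, 4219.5 and 8072 at day 3, against 129, 98.9 and 111 at day 0 (6.03 ± 0.37). Replicate 2 was the lowest day 3 library in all of these, and it remained far above day 0. *SFC1*, the mitochondrial carrier for succinate and fumarate, rose by 6.97 ± 0.32, the cytosolic malate dehydrogenase *MDH2* by 4.64 ± 0.53 and the peroxisomal citrate synthase *CIT2* by 3.49 ± 0.18. The 7 genes took 2.23%, 1.33% and 2.03% of the counts at day 3, against 0.0403%, 0.0396% and 0.0396% at day 0.

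Next to them stood the shuttles for acetyl units, acetate and lactate, of which 8 of 12 were called higher and none lower. The carnitine carrier *CRC1* had 23872, 20415 and 21626 normalized counts at day 3, against 179, 161 and 171 at day 0 (7.01 ± 0.13). The carnitine acetyltransferase *YAT1* had 43958, 48242 and 39017 at day 3, against 461, 455 and 386 at day 0 (6.65 ± 0.17). *JEN1*, the permease for lactate and pyruvate, had 43672, 51242 and 38489.9 at day 3, against 513, 474 and 491 at day 0 (6.496 ± 0.17). Here all day 3 libraries were close to each other and nowhere near day 0. The acetate transporter *ADY2* rose by 6.59 ± 0.24 and its relative *ATO2*, a putative ammonium exporter, by 6.13 ± 0.17, whereas *ATO3* (0.701 ± 0.13) and the lactate dehydrogenases *DLD1* (0.495 ± 0.16), *DLD2* (-0.59 ± 0.08) and *DLD3* (-0.47 ± 0.10) were not called.

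Among 26 regulators of carbon source use, 10 were called higher and 4 lower. *SIP4*, an activator of gluconeogenic genes, had 12855, 8515 and 11796 normalized counts at day 3, against 299, 296 and 268 at day 0 (5.26 ± 0.19, adjusted p = 1.1e-06). *CAT8*, which acts above *SIP4*, had 5079.9, 6382 and 4886 at day 3, against 962, 940.5 and 937 at day 0 (2.53 ± 0.12), and *ADR1*, which acts on *ADH2* and on peroxisomal genes, rose by 2.51 ± 0.10. *SNF1*, the kinase above them, had 4872, 4623 and 5266 normalized counts at day 3, against 5183, 4967 and 4858 at day 0, and its log2 fold change was -0.02 ± 0.09 (adjusted p = 0.81). The repressor gene *NRG1* rose by 2.14 ± 0.10 and *STD1*, a gene of glucose signalling, fell (-2.84 ± 0.08).

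Cat8 and Sip4 bind the carbon source-responsive element (CSRE). The stretch from 51 to 450 bases before the start codon was read for 6147 of the 6163 genes from the R64 genome, and each motif was searched on both strands. CSRE was in 0.358% of all these stretches (22 of 6147) and in 0.824% of those of genes called higher (10 of 1214). Among genes that rose by more than 3 it was in 2.8% (6 of 214). It was in 28.6% of the stretches of the glyoxylate and gluconeogenesis list (2 of 7), and the other genes of that list held no match. A match of letters is a description and not a bound site. The stretches of *ICL1* (chrV:287245-287344, minus strand), *SIP4* (chrX:265606-265705, plus strand) and *YAT1* (chrI:190013-190112, plus strand) are shown as examples from an enzyme of the glyoxylate cycle, an activator and a carnitine enzyme. Of the genes in the lists of acetate use, *ACS1*, *MDH2* and *YAT2* hold the element too. They read 5′ to 3′ toward the gene with the CSRE match in capitals.
ICL1: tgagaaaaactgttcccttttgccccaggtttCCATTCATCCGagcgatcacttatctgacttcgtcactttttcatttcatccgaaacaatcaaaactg
SIP4: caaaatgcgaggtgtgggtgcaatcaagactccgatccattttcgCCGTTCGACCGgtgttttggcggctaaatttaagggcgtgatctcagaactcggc
YAT1: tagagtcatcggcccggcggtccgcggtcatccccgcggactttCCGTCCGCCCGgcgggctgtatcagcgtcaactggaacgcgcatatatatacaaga

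Most calls among respiration genes were rises. Of the 17 genes of the TCA cycle, 9 were called higher and 1 lower, with a median of 1.08. *CIT3*, a mitochondrial citrate and methylcitrate synthase, had 14175, 13044 and 12904 normalized counts at day 3, against 293, 258 and 269 at day 0 (5.61 ± 0.11), and *SDH2*, a subunit of succinate dehydrogenase, had 37344, 52963 and 35024 at day 3, against 7085, 6927 and 6961 at day 0 (2.58 ± 0.18). Among 37 nuclear-encoded genes of the respiratory chain and ATP synthase, 14 were called higher and 3 lower, with a median of 0.67. *NDE2*, an external NADH dehydrogenase, had 23229, 20824 and 24766 normalized counts at day 3, against 413, 337 and 338 at day 0 (5.98 ± 0.15). Its partner *NDE1* fell (-1.02 ± 0.17), a call that was lost without replicate 2 of day 3 (-0.85), and of the paralogous subunits of cytochrome c oxidase *COX5A* rose (1.95 ± 0.19) while *COX5B*, the form known from low oxygen, fell (-1.88 ± 0.18). *COX7* (2.77 ± 0.24) and *QCR10* (2.56 ± 0.16) were the next largest rises of the list.

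Of 6 tested genes encoded by mitochondrial DNA, 5 were called higher. Yeast mitochondrial messages carry no poly-A tail, and the libraries were enriched with poly dT. *ATP6* had 414, 798 and 487 normalized counts at day 3, against 109, 102 and 92.1 at day 0 (2.48 ± 0.27), and *COB*, for cytochrome b, had 27.7, 34.5 and 38.4 at day 3, against 8.19, 6.18 and 8.37 at day 0 (2.12 ± 0.27). Of 64 mitochondrial ribosomal protein genes, 2 were called higher and 6 lower, with a median of -0.21, both shares below those of all genes. Without replicate 2 of day 3, 1 was called higher and 12 lower, with a median of -0.395. Among all genes called higher the core of the Hap2/3/4/5 site (CCAAT) was in 57.1% of the stretches, and among those called lower in 52.2%, near the 54.5% of all. The core of the Hap2/3/4/5 site was in 88.2% of the TCA cycle stretches and in 86.5% of those of the respiratory chain. *HAP4*, the activating subunit of that factor, had 9903, 11623 and 8312 normalized counts at day 3, against 8768, 9558 and 9883 at day 0, a log2 fold change of 0.08 ± 0.14 (adjusted p = 0.61).

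Most genes of fatty acid breakdown in the peroxisome rose. Of 16 genes of beta-oxidation, 13 were called higher and none lower, with a median of 2.72. *POT1*, the thiolase, had 15263, 21324 and 11399 normalized counts at day 3, against 258, 228 and 221 at day 0 (6.09 ± 0.27). *POX1*, the acyl-CoA oxidase, had 5117, 5700.0 and 5074 at day 3, against 233, 212 and 202 at day 0 (4.62 ± 0.11), and the peroxisomal catalase *CTA1* had 12040.3, 28472 and 10216 at day 3, against 605, 526 and 570.2 at day 0. Replicate 2 was the highest library for *CTA1*, whose log2 fold change of 4.898 ± 0.44 was 4.30 without it. Of 30 genes of peroxisome biogenesis, 13 were called higher and none lower, with a median of 0.92. *PEX18*, a partner of the import receptor Pex7, rose most (3.77 ± 0.14), followed by *PEX22* (2.31 ± 0.18) and *PEX15* (2.16 ± 0.11), anchors of the receptor-export machinery. *PEX11*, which divides peroxisomes, rose by 1.98 ± 0.10.

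In fatty acid and sterol synthesis most calls were falls. Of 19 genes of fatty acid synthesis and storage lipids, 7 were called lower and 1 higher. *ELO2*, a fatty acid elongase, had 715, 718 and 859.8 normalized counts at day 3, against 7932, 8065 and 7819 at day 0 (-3.38 ± 0.11), and the synthase gene *FAS1* had 12860.3, 7574 and 17394 at day 3, against 68859, 69758 and 68928 at day 0 (-2.46 ± 0.30). The gene that rose was *DGA1* (1.64 ± 0.08), whose product makes triacylglycerol. Of 24 genes of ergosterol synthesis, 10 were called lower and none higher, among them *ERG6* with 2137, 889 and 2445 normalized counts at day 3, against 19376, 17943 and 19540.3 at day 0 (-3.38 ± 0.37).

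Of 37 genes of autophagy and vacuolar proteases, 25 were called higher and none lower, with a median of 1.55. *ATG8*, which coats the autophagosome, had 12411, 13291 and 11672 normalized counts at day 3, against 1343, 1255 and 1335 at day 0 (3.25 ± 0.10, adjusted p = 6.4e-07). The receptors for single organelles were among the largest rises. *ATG36*, the receptor for peroxisomes, rose by 3.96 ± 0.14, *ATG39*, which marks the nuclear envelope, by 3.95 ± 0.11, and *ATG32*, which marks mitochondria, by 2.81 ± 0.10. *ATG34*, a receptor for vacuolar enzymes under starvation, rose by 3.63 ± 0.12, with 141 of its coding bases overlapping another gene. The vacuolar protease *PRB1* had 149511, 51546 and 170886 normalized counts at day 3, against 18686, 18436 and 17551 at day 0 (2.77 ± 0.43). Of 34 proteasome genes, 1 was called lower and none higher, with a median of -0.27.

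Of 20 hydrophilin and stationary-phase genes, 16 were called higher and 1 lower, with a median of 2.46. Besides *SIP18*, *GRE1* and *SPG4*, *SPG1* had 43112, 56202 and 33468 normalized counts at day 3, against 241, 259 and 191 at day 0 (7.58 ± 0.28). *DDR2*, a stress gene regulated through Msn2 and Msn4, had 102982, 47364 and 105098 at day 3, against 3198, 3362 and 3334 at day 0 (4.69 ± 0.34). *HSP12*, a small protein that protects membranes, had 149703, 93864 and 135069 at day 3, against 26037, 29061 and 25960.3 at day 0 (2.22 ± 0.21). *SNZ1*, an enzyme of vitamin B6 synthesis known from stationary phase, rose by 4.21 ± 0.12. *GRE3*, an aldose reductase, was the member called lower (-1.03 ± 0.18), a call that was lost without replicate 2 of day 3 (-0.83). *NCE102*, a protein of membrane domains, rose by 1.096 ± 0.40 in all libraries and by 1.47 without replicate 2. The list took 3.93%, 4.19% and 3.66% of the counts at day 3, against 0.377%, 0.389% and 0.394% at day 0.

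Msn2 and Msn4 bind the stress response element (STRE, CCCCT) and Gis1 the related post-diauxic shift element (PDS, AGGGAT). STRE was in 36.7% of the stretches of genes called higher and in 24% of those of genes called lower, against 29.3% of all. Among genes that rose by more than 3 it was in 46.3%. PDS was in 15.4% of the stretches of genes called higher and in 11.8% of those of genes called lower, against 12.4% of all. The share of genes called higher was 31.9% among the 282 genes with 2 STRE matches and 24.4% among the 82 genes with 3 or more, against 17.7% among those with none, so it did not rise steadily with their number. The stretches of *DDR2* (chrXV:231906-232025, minus strand), *HSP12* (chrVI:106806-106895, plus strand) and *SIP18* (chrXIII:610596-610675, plus strand) are shown as examples with 2 or more matches. They come from the 5 most abundant transcripts of aged cells per kilobase, of which *GRE1* and *HSP26* are not shown. STRE matches are in capitals, on the other strand in *HSP12*, where they read AGGGG.
DDR2: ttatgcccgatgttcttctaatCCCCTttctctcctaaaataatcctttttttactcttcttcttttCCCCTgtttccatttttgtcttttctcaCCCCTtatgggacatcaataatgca
HSP12: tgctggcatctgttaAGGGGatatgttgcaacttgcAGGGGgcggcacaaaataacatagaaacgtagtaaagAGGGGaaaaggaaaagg
SIP18: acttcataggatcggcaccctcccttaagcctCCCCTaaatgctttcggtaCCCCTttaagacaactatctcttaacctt

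Cytosolic chaperones were mixed, with 8 of 28 called higher and 4 lower and a median of 0.15, and with 11 called higher and 3 lower and a median of 0.39 without replicate 2 of day 3. *SSA3*, an Hsp70 of stationary phase, had 116032, 105744 and 115449 normalized counts at day 3, against 1503, 1565 and 1621 at day 0 (6.17 ± 0.16, adjusted p = 5.9e-07). *SSA2*, the Hsp70 of growing cells, had 4602, 1799.7 and 5285 at day 3, against 47132, 43271 and 42778 at day 0 (-3.51 ± 0.40). The small heat-shock protein gene *HSP26* had 283805, 135023 and 275843 at day 3, against 8804, 11262 and 10419 at day 0 (4.51 ± 0.35). The ribosome-bound Hsp70 gene *SSB1* fell (-3.45 ± 0.21). *SSA2* shares part of its sequence with *SSA1*, and *SSB1* with *SSB2*, and 54.0% of the windows of *SSA2* and 68.2% of those of *SSB1* are unique. *HSP32* (4.57 ± 0.11) and *HSP33* (4.83 ± 0.09) are near copies of each other and their counts are uncertain. In the lumen of the ER, 8 of 15 folding genes were called lower and 1 higher, with a median of -1.16.

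Stores and defences showed no single direction. Of 7 trehalose genes, *TPS3* (-2.34 ± 0.32), *TSL1* (-2.13 ± 0.36) and *TPS2* (-1.99 ± 0.22), subunits of trehalose synthase, fell, and *ATH1*, the acid trehalase that breaks trehalose down, had 7918, 9354 and 8714 normalized counts at day 3, against 1578, 1597 and 1583 at day 0 (2.45 ± 0.09). Of 13 glycogen genes 4 were called higher and 5 lower, with the synthases *GSY1* (-2.66 ± 0.14) and *GSY2* (-1.901 ± 0.22) and the phosphorylase *GPH1* (-1.51 ± 0.26) among those lower. In *TSL1* the day 3 libraries had 7155, 3146 and 9036 normalized counts, against 29472, 28262 and 26938 at day 0, and replicate 2 was the lowest. Of 29 antioxidant genes, 11 were called higher and 3 lower. The cytosolic catalase *CTT1* had 55709, 25412 and 63939 normalized counts at day 3, against 13064, 13418 and 13355 at day 0 (1.86 ± 0.33), and the mitochondrial superoxide dismutase *SOD2* rose by 1.86 ± 0.24, while thioredoxin reductase *TRR1* fell (-2.19 ± 0.13).

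Ribosomal protein genes fell together. Of 137 genes for cytosolic ribosomal proteins, 129 were called lower and none higher. In 129 of the 137, all day 3 libraries lay below all day 0 libraries, as they did in 2474 of all 6163 genes tested. Their median log2 fold change was -2.56, with quartiles of -2.89 and -2.24. Without replicate 2 of day 3, 129 genes were called lower with a median of -2.67. The genes took 2.23%, 3.05% and 2.01% of the counts at day 3, against 13.5%, 13.9% and 13.3% at day 0. *RPL9A*, the largest fall, had 1322, 1784 and 1282 normalized counts at day 3, against 27043, 29229.8 and 25781 at day 0 (-4.23 ± 0.17, adjusted p = 1.5e-06). The 8 genes not called were *RPL28*, *RPS14B*, *RPL22A*, *RPL36B*, *RPL15B*, *RPL33A*, *RPL39* and *RPL43A*. In 6 of these, all but *RPS14B* and *RPL15B*, 88.0% to 99.3% of the coding bases overlap another annotated coding sequence, where reads were left out by the counting. Their means were 59.8 to 377 normalized counts at day 3, against 38.6 to 579 at day 0, whereas the medians of the other 131 genes were 3980 at day 3, against 24570 at day 0. Of those 131 genes, 129 were called lower, so the genes not called were mostly those with few countable bases.

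**Figure D2:**
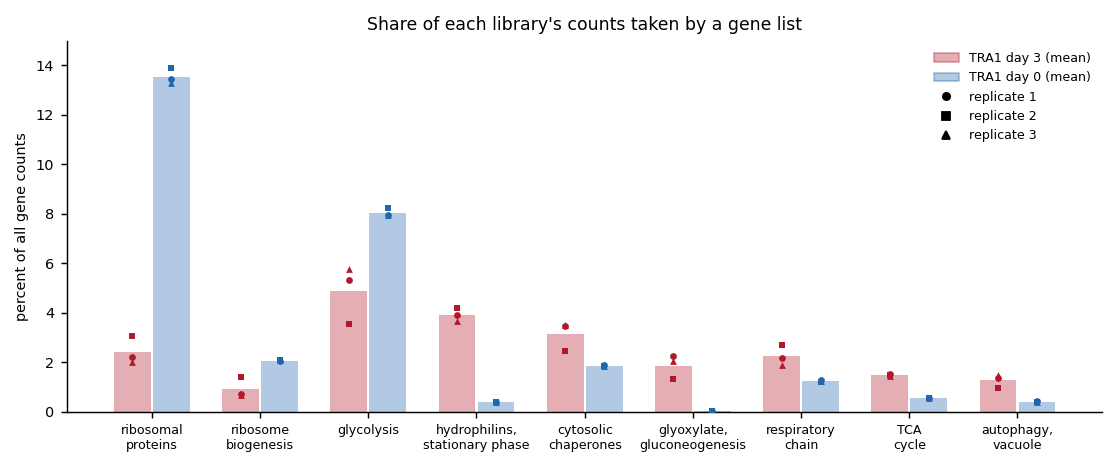
Percent of all gene counts taken by 9 gene lists in TRA1 libraries, with bars at the mean of day 3 (red) and of day 0 (blue) and a point for each replicate. Ribosomal proteins took 2.01% to 3.05% at day 3, against 13.3% to 13.9% at day 0, while the glyoxylate cycle and gluconeogenesis list took 1.33% to 2.23% at day 3, against 0.0396% to 0.0403% at day 0.

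Genes of the machinery that builds ribosomes fell by less and less evenly. Of 111 nucleolar ribosome biogenesis genes, 67 were called lower and 1 higher, with a median of -1.29. *NOP56*, a protein of the snoRNPs that methylate ribosomal RNA, had 1223, 1966 and 1348 normalized counts at day 3, against 11512, 11551 and 11633 at day 0 (-2.94 ± 0.19). *NOP1*, the methyltransferase of these particles, had 3634, 8504 and 2933 at day 3, against 31183, 31582 and 29966 at day 0 (-2.62 ± 0.40, and -3.23 without replicate 2). In both, replicate 2 was the highest day 3 library. Over the whole list, the level in replicate 2 was above the mean of replicates 1 and 3 by 0.75 on the log2 scale, and without it 86 genes were called lower and none higher. The gene called higher with all libraries, *NOP16*, had 5352, 14318 and 4347 normalized counts at day 3, against 3129, 3419 and 3452 at day 0. The log2 fold change of *NOP16* was 1.26 ± 0.43 with all libraries and 0.55 without replicate 2. Of 21 subunits of RNA polymerases I and III, 11 were called lower and none higher, and *RPA190*, the largest subunit of polymerase I, had 2258, 4109 and 2434 normalized counts at day 3, against 14472, 13989 and 14149 at day 0 (-2.28 ± 0.23). *RPA135*, the second largest, had 1841, 3204 and 2009 at day 3, against 14943, 13908 and 14111 at day 0 (-2.61 ± 0.22).

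Genes of this machinery are known for a pair of promoter motifs, the polymerase A and C element (PAC, GATGAG) and the ribosomal RNA processing element (RRPE, AAAAATTTT). RRPE was in 19.2% of the stretches of genes called lower and in 3.46% of those of genes called higher, against 8.7% of all. PAC was in 29% of the stretches of genes called lower and in 21.3% of those of genes called higher, against 24.3% of all. In the ribosome biogenesis list PAC was in 91.9% and RRPE in 67.6% of the stretches, and in the list of polymerases I and III in 85.7% and 57.1%. Of the 132 genes with 2 RRPE matches, 53.8% were called lower, with a median log2 fold change of -1.09, against 17.6% of the genes with none. In a run of AAAAATTTTT both strands match with an overlap and count as 2. These lists hold 67 and 11 of the 1223 genes called lower, so the shares are not fully independent of the fall of the lists. RRPE was in 235 stretches of genes called lower. It was in 75 stretches of the biogenesis list and 12 of the polymerase list, whether called or not. The stretches of *RPA190* (chrXV:960747-960846, plus strand) and *RPA135* (chrXVI:581277-581366, minus strand), the catalytic pair of polymerase I, show PAC and RRPE together, both in capitals. PAC reads CTCATC here, on the other strand.
RPA190: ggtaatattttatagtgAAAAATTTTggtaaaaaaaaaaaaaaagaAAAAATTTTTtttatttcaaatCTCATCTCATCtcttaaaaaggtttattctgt
RPA135: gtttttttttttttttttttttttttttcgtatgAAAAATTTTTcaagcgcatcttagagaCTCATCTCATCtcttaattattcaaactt

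**Figure D3:**
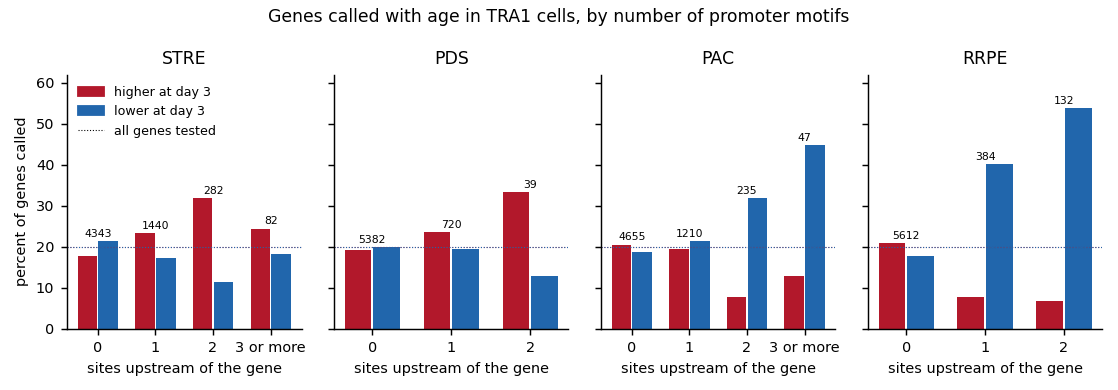
Percent of genes called higher (red) and lower (blue) at day 3 in TRA1 cells, by the number of motif matches from 51 to 450 bases before the start codon, for STRE, PDS, PAC and RRPE. Numbers above the bars are genes and dotted lines mark the 19.9% and 19.8% of all genes tested, and 53.8% of the 132 genes with 2 RRPE matches were called lower.

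Of 58 genes of amino acid synthesis, which is under Gcn4, 34 were called lower and 2 higher, with a median of -1.30. The falls were largest in the branched-chain path. *LEU9*, one of the isopropylmalate synthases, had 333, 439 and 302 normalized counts at day 3, against 5579.6, 5345 and 5627 at day 0 (-3.95 ± 0.15), *BAT1*, the mitochondrial branched-chain transaminase, had 2266, 2364 and 2557 at day 3, against 34028, 35128 and 35176 at day 0 (-3.86 ± 0.11), and *LEU1*, isopropylmalate isomerase, fell (-3.18 ± 0.14). The medium lacked leucine according to the methods, and the cells carried *LEU2* on the plasmid, whose count is given above. The genes that rose were *LYS20* of lysine synthesis (1.100 ± 0.14) and *ARO9*, an aromatic transaminase (1.11 ± 0.24), of which 651 coding bases overlap another gene. The Gcn4 site (TGACTC) was in 70.7% of the stretches of the list, against 10.7% of all. Among all genes called lower it was in 10.5%, and among those called higher in 11.6%, both near the share of all. Without replicate 2 the fall of *ARG1*, an enzyme of arginine synthesis, was -0.89, against -1.302 ± 0.46 with it. Of 24 genes of purine and pyrimidine synthesis, 10 were called lower and 3 higher, with *URA7*, the CTP synthase, at 451, 932 and 403 normalized counts at day 3, against 7989, 7536 and 7945 at day 0 (-3.72 ± 0.33), and *MTD1*, of the folate cycle, at 3855, 3129 and 3424 at day 3, against 987, 1118 and 1203 at day 0 (1.65 ± 0.12).

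Several genes of iron and zinc uptake rose. Of 23 genes of iron uptake and its control, 11 were called higher and 1 lower, with a median of 0.96. *FIT2*, a cell wall protein that holds siderophores, had 6515, 5707 and 4460.3 normalized counts at day 3, against 121, 129 and 128 at day 0 (5.47 ± 0.17). *TIS11*, which degrades messages of iron-using proteins, had 8462, 2569.8 and 9507 at day 3, against 125, 132 and 108 at day 0 (5.81 ± 0.54), with replicate 2 well below the others, and 6.21 without it. *ISU1*, a scaffold for iron-sulfur clusters, rose (2.62 ± 0.12) and its paralog *ISU2* fell (-1.65 ± 0.10). Of 10 zinc genes, 5 were called higher and none lower. The regulator *ZAP1* had 8619, 9059 and 10496 normalized counts at day 3, against 1838, 1946 and 1948 at day 0 (2.297 ± 0.10), and the zinc transporter *ZRT2* rose by 2.15 ± 0.10. Of 22 genes of the phosphate regulon, 4 were called higher and 1 lower, near or below the shares of all genes. The phosphate transporter *PHO89* had 7007, 4457 and 10173 at day 3, against 107, 115 and 106 at day 0 (6.04 ± 0.34), *PHO84* rose by 2.696 ± 0.21, and *PHO3*, a constitutive acid phosphatase, fell (-3.49 ± 0.26).

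Several genes of the cell cycle were called lower at day 3. Of 20 cyclins and related genes, 8 were called lower and 1 higher. The mitotic cyclin *CLB2* had 244, 172 and 205 normalized counts at day 3, against 2146, 2087 and 2232 at day 0 (-3.38 ± 0.14), and the G1 cyclin *CLN2* had 717, 955 and 678 at day 3, against 4836, 4818 and 4891 at day 0 (-2.63 ± 0.14). *CDH1*, which helps to destroy mitotic cyclins, was the gene called higher (1.15 ± 0.07). Of 11 histone genes, *HTA2* (-3.27 ± 0.09), *HTB2* (-3.06 ± 0.12) and *HHF2* (-2.12 ± 0.19) fell and the other 8 were not called. Of 35 genes of DNA replication, 5 were called lower and 2 higher, shares below those of all genes. *RNR1*, the large subunit of ribonucleotide reductase, had 441, 584 and 509.6 normalized counts at day 3, against 7087, 6597 and 6857 at day 0 (-3.74 ± 0.13), while *RNR3*, its form known from DNA damage, had 822, 1359.9 and 973 at day 3, against 318, 364 and 356 at day 0 (1.603 ± 0.19). The MluI cell cycle box (ACGCGT) was in 45.7% of the stretches of the replication list, against 4.67% of all. Among all genes called lower it was in 4.91%, and among those called higher in 4.12%, both near the share of all.

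Transcripts of cell wall proteins shifted in both directions, and the proteins themselves were not measured. Of 24 mannoprotein genes, 8 were called higher and 5 lower. *PIR3* had 178711, 69513 and 193990.0 normalized counts at day 3, against 17214, 17247 and 17027 at day 0 (3.102 ± 0.39). *SED1*, an abundant wall protein of stationary cells, had 458632, 152287 and 475626 at day 3, against 118531, 130955 and 120336 at day 0. Replicate 2 of *SED1* was near the level of day 0, and its log2 fold change of 1.55 ± 0.43 was 1.93 without that library. *CIS3* had 1323, 1027 and 803 at day 3, against 19710.1, 19333 and 18482 at day 0, and *TIP1* (-3.59 ± 0.12), *CCW12* (-3.17 ± 0.20), *CWP1* (-2.71 ± 0.17) and *CWP2* (-1.53 ± 0.36) were the other members called lower.

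Regulators named in chronological aging were called in both directions. Of 23 lifespan kinases and stress regulators, 6 were called higher and 2 lower, with a median of 0.42. *XBP1*, a repressor of growth genes known from quiescence, had 10191, 6528 and 11258 normalized counts at day 3, against 1903, 1918 and 1837 at day 0 (2.31 ± 0.20), and *GIS1* rose by 1.11 ± 0.09. *MSN2* had 1932, 1900.0 and 2086 at day 3, against 2046, 1895 and 1902 at day 0, with a log2 fold change of 0.02 ± 0.08 (adjusted p = 0.84). *RAS1* (-1.75 ± 0.28) and *RAS2* (-1.22 ± 0.14), the GTPases above protein kinase A, fell. The 32 members of SAGA and NuA4, the complexes that hold Tra1, had a median of 0.14, and of 0.03 without replicate 2 of day 3. Of these members, 4 were called higher and 1 lower, both shares below those of all genes. The 4 were the NuA4 genes *YNG2* (1.59 ± 0.12), *EAF7* (1.501 ± 0.16), *EAF3* (1.14 ± 0.08) and *ESA1*, its acetyltransferase, which had 2063, 2464 and 2086 normalized counts at day 3, against 894, 1008 and 1005 at day 0 (1.19 ± 0.10). The member called lower was *ACT1*, actin, which NuA4 shares with the cytoskeleton (-1.83 ± 0.24).

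The change with age was then set against that in *tra1Q3* cells, with the difference tested as an interaction in 1 fit of all 12 libraries. Of 6247 genes tested, 1968 (31.5%) had an interaction with an adjusted p of at most 0.05 and an absolute log2 value over 1, 1116 positive, which means a higher fold change in *TRA1* cells, and 852 negative. Of the 2450 genes called with age in *TRA1* cells, 1002 were among them. Interactions were ranked only among these genes, and only where the ages did not overlap and the higher age averaged at least 100 normalized counts. Genes not called with age in *TRA1* cells were not ranked. The 10 largest were those of *DPA10*, *SIP18*, *MLS1*, *GRE1*, *PDC6*, *YDL218W*, *SPS100*, *RGI1*, *PCK1* and *ICL1*. In *SIP18*, *TRA1* cells had 97161, 137860.0 and 71529 normalized counts at day 3, against 185, 123 and 117 at day 0, and *tra1Q3* cells had 1798, 1649.9 and 1935 at day 3, against 61.9, 1018 and 876 at day 0, all on the scale of the 12 libraries. The log2 fold change of *SIP18* was 9.49 in *TRA1* cells and 1.47 in *tra1Q3* cells. The fold change of *ICL1* was 7.16 in *TRA1* cells and 1.30 in *tra1Q3* cells, and that of *MLS1* was 9.48 in *TRA1* cells and 1.46 in *tra1Q3* cells. The day 0 libraries of *tra1Q3* cells were uneven in these genes, and replicate 1 was far below replicates 2 and 3. Without replicate 1 the differences were larger, at 8.57 for *SIP18* and 6.17 for *ICL1*. With each library left out in turn they ran from 7.55 to 8.57 for *SIP18* and from 5.62 to 6.17 for *ICL1*. Each of these fits kept an adjusted p of at most 0.000479 in the 10 genes. In *SIP18*, replicate 1 was the day 0 library of *tra1Q3* cells nearest the day 0 level of *TRA1* cells, so the size of the difference depends on the day 0 libraries used.

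**Figure D4:**
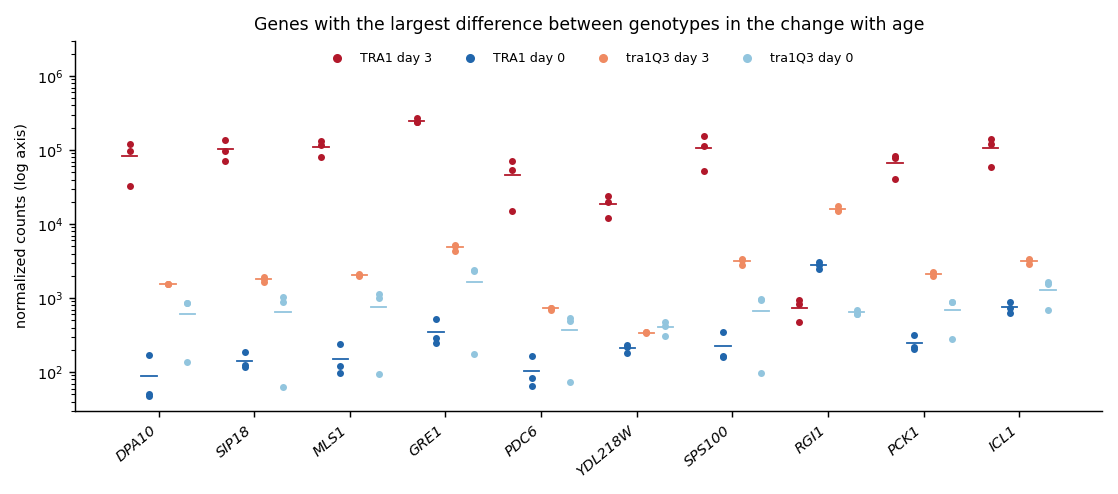
Normalized counts of 10 genes, scaled over all 12 libraries and on a log axis. TRA1 cells and tra1Q3 cells are shown at day 3 and day 0, with a point for each library and a line at each mean. The genes have the largest difference between the genotypes in the change with age among genes called with age in TRA1 cells. In 9 of the 10 genes the TRA1 libraries of day 3 lie above all others, and in RGI1 the tra1Q3 libraries of day 3 do.

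Among the ranked genes the largest negative interaction was in *RGI1*, a gene of respiratory growth and the relative of *RGI2*. *RGI1* fell in *TRA1* cells, with 933, 469 and 821 normalized counts at day 3, against 2506, 2774 and 3062 at day 0, whereas *tra1Q3* cells had 15147, 17816 and 15391 at day 3, against 617, 687 and 613 at day 0. Of the 486 coding bases of *RGI1*, 450 overlap another annotated coding sequence, so its counts come from a small part of the gene. Among the 137 ribosomal protein genes, 77 had a positive interaction and 2 a negative one, which means that most of the called ones fell by more in *tra1Q3* cells. *HXT4* had an interaction of -4.75 ± 0.24, which passed the test, and *HXT1* one of 0.203 ± 0.24, which did not. For 2 of the large rises, those of *SSA3* (0.12 ± 0.33) and *ATG8* (-0.12 ± 0.12), the interaction did not pass the test.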

How the data were processed

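RNA of *TRA1* cells at day 3 and day 0 and of *tra1Q3* cells at the same ages was sequenced in 3 replicates each as read pairs. The authors deposited raw counts per gene, made on the coding sequences of the R64-2-1 annotation after trimming and alignment, and only uniquely mapped reads were counted. The submitters' processing notes name STAR 2.5.4b, featureCounts 1.6.0 and DESeq2 1.26.0. According to the file header, strand was ignored and reads in overlaps of genes were not assigned. Counts of pairs and of single reads, 12.6% to 18.1% of each *TRA1* library, were added. One unnamed entry, 0.0358% to 0.196% of the counts, was left out.

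The tests used edgeR 4.0.16 under R 4.3.3 (TMM, glmQLFit and glmQLFTest) for genes with 10 counts in 3 libraries. Standard errors were taken from the F statistic. Day 3 was compared with day 0 in the 6 *TRA1* libraries alone, and the interaction in all 12. The gene lists and members were chosen with earlier results of these data known. Genes were named by a rule: the 10 largest rises, falls and interactions among called genes whose counts did not overlap between groups and averaged at least 100 in the higher group, members of the lists (in lists over 20 genes mainly the 3 largest in each direction and regulators), and the 5 most abundant per kilobase. Other members are named as examples. The tests were repeated with DESeq2 1.42.0, with size factors of DESeq2 in edgeR, with upper quartile scaling or library totals, and with other filters and thresholds, glmTreat, read pairs alone, a fit of 12 libraries, a replicate block and each library removed. The steps were tested on simulated data. Gene names of 6008 of 6691 entries were matched to RefSeq, whose R64 genome gave the promoter stretches. Python 3.11 was used for tables (pandas 2.3.3, numpy 2.4.6) and plots (matplotlib 3.10.9).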

Additional observations from a re-analysis of the deposited data

Results flagged for a closer look

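The change with age differed between the genotypes in 1968 of the 6247 genes, by a test of the difference itself in the fit of all 12 libraries. The values below are log2 fold changes with age in *TRA1* cells minus those in *tra1Q3* cells, with adjusted p-values of edgeR's interaction test between 7.5e-09 and 7.5e-05. Only genes called with age in *TRA1* cells, under the naming rule given above, were ranked. Among them *DPA10* had the largest, 8.53, followed by *SIP18* with 8.03 and *MLS1* with 8.02. *GRE1* had 7.89, *PDC6* had 7.82 and *YDL218W*, a gene with no role known here, had 6.72. *SPS100* had 6.63, *PCK1* had 6.44 and *ICL1* had 5.87. Among the ranked genes the largest negative difference was that of *RGI1*, at -6.56. In *YDL218W* the log2 fold change was 6.48 in *TRA1* cells and -0.24 in *tra1Q3* cells. In the other positive genes the day 0 libraries of *tra1Q3* cells were uneven. *DPA10*, for example, had 137.0, 870.5 and 849 normalized counts in *tra1Q3* replicates 1, 2 and 3 at day 0. Without replicate 1 of *tra1Q3* cells at day 0 the difference of *DPA10* was 9.01. With each library left out in turn it ran from 8.18 to 9.39.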

How the results depend on the processing

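With all genes tested, 2450 were called, and every alternative scaling, tool, filter and left-out library kept the counts within 1.5 times. The size limit decided the number of calls. Where the log2 fold change had to exceed 2, the count was 940, with 473 higher and 467 lower, and by the adjusted p alone 4674, of which 2379 were higher and 2295 lower. DESeq2 called 2456 genes. Removing single libraries gave counts from 2404 to 2440, and it was 2411 without replicate 2 of day 3, of which 2238 were among the 2450. Library totals in place of TMM moved the median of all genes to 0.20 and gave 1514 genes higher and 1030 lower, so that 59.5% of the calls were rises, against 50.1% with TMM. The median of the mitochondrial chaperone list was -0.03 with TMM, 0.15 with library totals and 0.06 with upper quartile normalization, and that of the glycerol list was -0.16 with all libraries and 0.01 without replicate 2 of day 3. In *TRA1* cells replicate numbers are shared by the ages, but the deviations of same-numbered libraries had correlations of -0.03, 0.03 and -0.06 over genes. No library of day 3 correlated best with its own number. With 3 libraries at each age, this cannot tell whether same-numbered samples came from the same culture. A fit with the replicate block called 2456 genes with age, 1208 higher and 1248 lower, and 1882 genes whose change with age differs between genotypes. The *tra1Q3* libraries are numbered 1, 2 and 3 at day 0 but 4, 2 and 3 at day 3. Numbers 1 and 4 were therefore blocks of 1 library each in the fit of both genotypes. They added nothing there to the change with age in *tra1Q3* cells. Depth limited genes near the filter of 10 counts, and the floor of 3 counts was 1.1e-05% to 1.5e-05% of a *TRA1* library of day 3 and 1.2e-05% of one of day 0.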

Other observations

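Nitrogen and sulfur genes, which belong to none of the groups described above, moved in both directions. Of 27 genes under nitrogen catabolite repression, 7 were called higher and 2 lower, with a median of 0.29, and of 0.49 without replicate 2 of day 3. *UGA4*, the permease for GABA, had 7669, 5085 and 5013 normalized counts at day 3, against 348, 327 and 313 at day 0 (4.17 ± 0.20). *PUT1*, proline oxidase, had 15579, 8736 and 13836 at day 3, against 2034, 2287 and 2244 at day 0 (2.54 ± 0.22), while *DAL3*, of allantoin use, fell (-1.26 ± 0.15). Of 27 genes of sulfate assimilation and methionine synthesis, 4 were called higher and 7 lower. *SAM2*, an S-adenosylmethionine synthetase, had 3634, 2915 and 4379.6 normalized counts at day 3, against 44232, 50761 and 49433 at day 0 (-3.72 ± 0.19). *MET30*, which marks the activator Met4 with ubiquitin, had 16251, 13372 and 17057 at day 3, against 2162, 2022 and 2009 at day 0 (2.91 ± 0.12), and the sulfate permease *SUL1* rose by 2.79 ± 0.30. The median of that list was -0.21 with all libraries and 0.07 without replicate 2 of day 3.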
